A study of Mus musculus with 4 samples.

Results

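Accessible chromatin was examined at 10 genes of the Kruppel-like factor family in mouse visceral adipose tissue. The genes were Klf2, Klf3, Klf4, Klf5, Klf6, Klf9, Klf10, Klf11, Klf13 and Klf15, taken by name from 21000 coding genes with a curated RefSeq start site. For each gene, peaks were collected within 500 bp of a start site and across a window that ran from 50 kb upstream of the first start site to 50 kb past the end of the gene. ATAC-seq, a transposase assay whose reads gather at open chromatin, had been run on 4 libraries from CD-1 mice, an outbred stock, aged 8 weeks. In the 2 control libraries the founding dams had received sesame oil, and in the 2 BPA libraries bisphenol A (BPA) at 50 mg/kg, injected daily from embryonic day 7.5 to 13.5. Both groups were otherwise of the same stock, tissue and age, and the animals were descendants that had not been dosed themselves. The sample titles call the BPA animals F3 and the text of the study calls them F4. Neither sex nor batch was labelled, and treatment and batch cannot be told apart here. The names of the deposited lists followed a different pattern in the 2 groups. Each library counted as 1 replicate, as labelled.

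Kruppel-like factors are transcription factors that bind GC-rich and CACCC-containing DNA through zinc fingers at their carboxyl terminus. In fat tissue several of them act during adipocyte differentiation, some upstream of Pparg and Cebpa and some as brakes on it. Klf2 and Klf4 are also known as flow-induced genes of endothelial cells, while Klf9 and Klf15 are induced by glucocorticoids and act in adipocytes.

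The reference sequence at a selection of sites is shown first, as the bases up to 50 bp either side of a summit. It was taken from RefSeq (GRCm38, the assembly that mm10 names) and written along the + strand. Distal sites were the best-ranked of their kind in the window, which can still be weak, and not every such site or promoter is printed. The sites are those of the endothelial pair Klf2 and Klf4, the adipocyte pair Klf9 and Klf15, and the best-ranked site at Klf11 that was found only in BPA. Capitals mark letters of a searched motif. At Klf2 the promoter (chr8:72318916-72319016) lies just upstream of the start site, the shared distal site (chr8:72295801-72295901) is intergenic and 23211 bp upstream, and the site found only in BPA (chr8:72281775-72281875) is intergenic and 37237 bp upstream.
Klf2 promoter: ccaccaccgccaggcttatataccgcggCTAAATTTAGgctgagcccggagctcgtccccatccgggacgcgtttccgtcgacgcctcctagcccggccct
Klf2 distal, all 4 libraries: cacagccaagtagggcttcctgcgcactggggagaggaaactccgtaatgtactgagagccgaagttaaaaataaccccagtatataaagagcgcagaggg
Klf2 distal, BPA only: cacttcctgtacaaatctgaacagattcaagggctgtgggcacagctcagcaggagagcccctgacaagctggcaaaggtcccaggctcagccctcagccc

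At Klf4 the shared distal site (chr4:55514907-55515007) is intergenic and lies 17518 bp downstream of the start site, past the end of the gene, which is on the - strand.
Klf4 distal, all 4 libraries: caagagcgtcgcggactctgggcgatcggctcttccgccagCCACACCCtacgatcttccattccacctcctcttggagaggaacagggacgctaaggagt

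At Klf9 the promoter site (chr19:23140891-23140991) has its summit 285 bp upstream of the start, the shared distal site (chr19:23135267-23135367) is intergenic and 5909 bp upstream, and the site found only in BPA (chr19:23125696-23125796) is intergenic and 15480 bp upstream.
Klf9 promoter: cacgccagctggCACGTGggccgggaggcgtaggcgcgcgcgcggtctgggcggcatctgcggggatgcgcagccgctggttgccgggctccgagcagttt
Klf9 distal, all 4 libraries: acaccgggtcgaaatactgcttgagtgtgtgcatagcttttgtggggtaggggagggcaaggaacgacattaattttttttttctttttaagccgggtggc
Klf9 distal, BPA only: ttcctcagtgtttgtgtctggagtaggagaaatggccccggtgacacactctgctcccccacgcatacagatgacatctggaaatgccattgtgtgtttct

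At Klf15 the shared distal site (chr6:90471312-90471412) lies in intron 2, 8786 bp downstream of the start, and the site found only in BPA (chr6:90495780-90495880) is intergenic, 33254 bp downstream of the start. At Klf11 the site found only in BPA (chr12:24634071-24634171) is intergenic, 17250 bp upstream.
Klf15 distal, all 4 libraries: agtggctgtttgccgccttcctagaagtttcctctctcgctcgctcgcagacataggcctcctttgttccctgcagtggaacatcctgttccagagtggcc
Klf15 distal, BPA only: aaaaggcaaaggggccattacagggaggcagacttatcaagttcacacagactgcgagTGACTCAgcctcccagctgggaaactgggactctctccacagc
Klf11 distal, BPA only: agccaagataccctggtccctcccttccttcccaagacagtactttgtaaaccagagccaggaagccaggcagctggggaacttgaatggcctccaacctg

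Of 8 motifs searched on both strands, 4 had a match among these sequences. The Klf2 promoter held the core of a MEF2 element, that is CTA and TAG 4 bases apart, at chr8:72318944-72318953. MEF2 factors are known activators of Klf2 in endothelial cells. This core was present in windows of this length at 0.829% of 15679 promoter regions and of 1.69% of 131478 distal regions. The shared Klf4 site held the CACCC box CCACACCC, a sequence that Kruppel-like factors bind, present in 1.15% of promoter regions and 1.08% of distal regions. The Klf9 promoter held the E-box CACGTG, bound by the circadian factors CLOCK and BMAL1 among others and present in 3.16% of promoter regions and 1.51% of distal regions. The Klf15 site found only in BPA held the AP-1 element TGACTCA, present in 1.28% of promoter regions and 4.33% of distal regions. That site was weak, with ranks of 77.3% and 80.2% in BPA 1 and BPA 2. Over all 117 distal regions in the 10 windows, AP-1 was matched in 6, the CACCC box in 5 and the MEF2 core in 4. A match describes letters in the reference and not binding.

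The lists of the controls held 82665 and 88911 peaks, and those of BPA 1 and BPA 2 held 72375 and 98060. The lowest local background of a list, a rough measure of depth, ran from 1.16 reads in BPA 1 to 3.80 reads in BPA 2. The pile-up at the best promoter peak of the median coding gene was 19.3 and 20 times that lowest background in the controls, and 65.8 and 64.8 times in BPA 1 and BPA 2. The fold of the median coding promoter was 6.03 and 6.84 in the controls and 10.3 and 9.39 in BPA, and its −log10 q-value was 23.8 and 26.6 against 50.6 and 148. Raw pile-ups, folds and q-values thus differed between the groups at the median promoter. Peaks were therefore set side by side by their rank by q-value within their own list, given in percent of the list, where a low percentage means a strong peak. All 7 adipocyte genes of a fixed list had a promoter peak in each library, as did 57.9% of all coding genes. Their median ranks were 54.3% and 23.1% in the controls and 64.7% and 51.15% in BPA 1 and BPA 2. Presence of these peaks is therefore no check of the tissue label.

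All 10 genes had a promoter peak in all 4 libraries. Among all 21000 coding genes, 57.9% did. Most of these peaks stood high in their lists, with 39 of the 40 ranks within the best 20%. The exception was Klf15 in control 2, at 63.5%. The median coding gene with a promoter peak ranked at 9.55% and 10.9% in control 1 and control 2, and at 9.53% and 7.08% in BPA 1 and BPA 2. Most coding promoter peaks were thus within the best 20% as well. Klf15 ranked at 15.6%, 15.2% and 17.7% of the list in control 1, BPA 1 and BPA 2. Among the best promoter peaks of coding genes alone these were 64.5%, 67.2% and 77.9%. Klf4 in control 2 ranked at 16.9% of the list and 62.4% among those peaks. RefSeq promoter sequences around the start site were matched for 8 of the 10 genes. Their G+C content ran from 63.0% at Klf6 to 77.7% at Klf11, with a median of 72.7% against 52.7% over 32851 promoters. They held 23 to 47 CpG dinucleotides, with a median of 32 against 7 over all promoters.

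**Figure D1:**
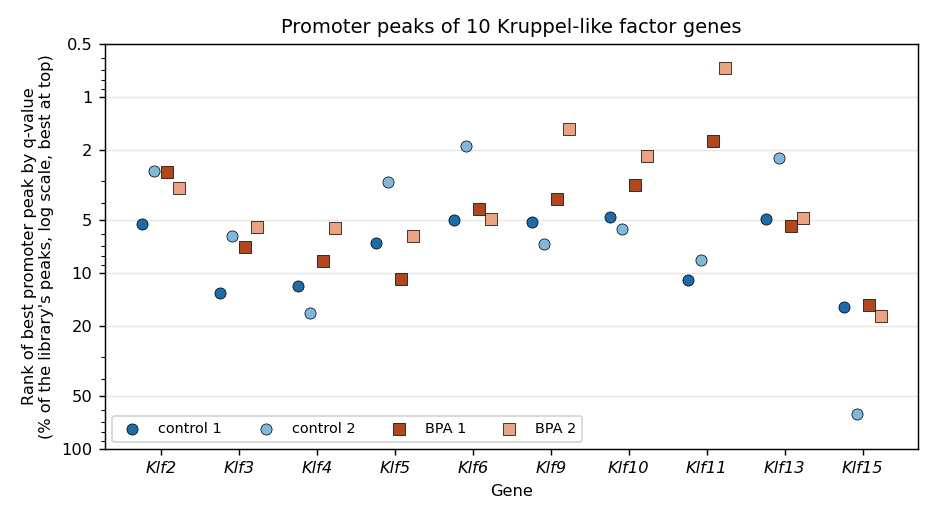
Rank of the best promoter peak of each gene by q-value, in percent of the peaks of its own library, on a logarithmic axis with the strongest peaks at the top. Circles are the 2 control libraries and squares the 2 BPA libraries. Both BPA values of Klf11, at 1.78% and 0.685%, lie above both of its control values, and Klf15 in control 2 lies lowest at 63.5%.

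Both BPA ranks were better than both control ranks at 4 of the 10 genes, Klf4, Klf9, Klf10 and Klf11, and both were worse at 0. Over the 12166 coding genes with a promoter peak in every library these shares were 40.7% and 18.7%, so the count of better ranks was near that of promoters in general. Without control 2 the first count was 7, and the second was 4 without control 1 and 2 without BPA 2. Groups separate more easily with 1 library left out, so these counts cannot be set beside the shares above. Ranked only among the best promoter peaks of coding genes, 4 members were better in BPA and 1 worse, against 35.6% and 24.7%. By pile-up over the median coding promoter 6 were higher in BPA and 2 lower, against 34.4% and 31.6%. By rank of the authors' fold of pile-up over local background 2 were better and 4 worse, against 39% and 15.9%. These last 3 measures were added after the data had been seen.

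The endothelial pair was taken first. Klf2, which holds back adipocyte differentiation by repressing Pparg and guards the resting state of endothelium, has its start site on chromosome 8 at 72319062, on the + strand. Its promoter peak ranked at 5.26% and 2.64% in the controls and, between these values, at 2.68% and 3.28% in BPA. The pile-up there was 87, 88, 189 and 505 reads in the same order. Relative to the median coding promoter of the same library, these pile-ups were 1.58, 1.63, 2.49 and 2.05 times, with both BPA values above both controls. By fold over local background Klf2 ranked at 20.8% and 5.01% in the controls and at 23.2% and 27.6% in BPA, the opposite order. The local background at Klf2 was 5.36 and 3.34 times the lowest of the library in the controls and 19.4 and 19.2 times in BPA.

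Klf4, an early inducer of adipogenesis and a partner of Klf2 in endothelium, starts on chromosome 4 at 55532475, on the - strand. Its promoter peak ranked at 11.8% and 16.9% in control 1 and control 2 and at 8.57% and 5.57% in BPA 1 and BPA 2. The groups did not overlap, and the mean was 14.4% ± 3.57 (SD, n = 2) for the controls against 7.07% ± 2.12 (SD, n = 2) for BPA. By fold the order was turned, with ranks of 34.3% and 35.8% in controls and 40.5% and 36.6% in BPA.

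Klf9, a glucocorticoid-induced and rhythmic gene that promotes adipocyte differentiation, starts on chromosome 19 at 23141226, on the + strand. Its promoter peak ranked at 5.11% and 6.88% in the controls and at 3.78% and 1.53% in BPA 1 and BPA 2. Both BPA ranks were better than both control ranks, and the same order held by fold, at 36.4% and 34.9% against 30.7% and 26.8%. Its pile-up was 1.96 and 1.76 times that of the median coding promoter in controls and 2.38 and 2.57 times in BPA.

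Klf15, which acts in adipocyte differentiation, induction of the glucose transporter gene Slc2a4 and amino acid catabolism, starts on chromosome 6 at 90462576, on the + strand. Its promoter peak ranked at 15.6% and 63.5% in the controls and at 15.2% and 17.7% in the BPA libraries. Control 2 stood apart from the other libraries, and control 1 lay between the BPA values. In control 2 the site was split in 2 peaks. A weak one, with a −log10 q-value of 5.13, reached from −393 to 60 bp of the start. A stronger one ranked at 24.5%, with a −log10 q-value of 15.0, and lay from 726 to 1435 bp downstream, outside the 500 bp. In control 1, BPA 1 and BPA 2 a single peak of 1543, 1860 and 1994 bp overlapped both places, with its summit at 993, 1127 and −61 bp from the start. The rank and pile-up of Klf15 in control 2 are those of the weaker peak. Relative to the median coding promoter, the pile-up was 1.055 and 0.648 times in the controls and 1.092 and 0.626 times in BPA 1 and BPA 2.

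Set against each other, the pairs gave a difference whose sign depended on control 2 and on the promoter width. The mean rank of Klf2 and Klf4 was 9.16% ± 0.863 (SD, n = 2) for the controls and 5.03% ± 0.847 (SD, n = 2) for BPA. The difference was 4.13 percentage points. These SDs are of the pair mean, and in both groups Klf2 and Klf4 moved in opposite directions between replicates. Klf4 alone differed by 7.29 percentage points and Klf2, whose groups overlapped, by 0.972. Their own control SDs were 3.57 and 1.85. The mean rank of Klf9 and Klf15 was 22.8% ± 17.6 (SD, n = 2) and 9.53% ± 0.0931 (SD, n = 2), a difference of 13.2 percentage points, smaller than the control SD. Klf9 and Klf15 also moved in opposite directions between the BPA replicates. The endothelial difference minus the adipocyte difference was −9.11 percentage points. It turned to 2.70 without control 2, to 0.655 with promoters of 1000 bp either side, which take in the second Klf15 peak, and to 0.793 with Klf9 alone in place of the adipocyte pair. For 2 libraries against 2 the smallest two-sided p of an exact permutation test is 0.333, so no test was run.

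Markers of endothelial cells moved with the treatment groups at the same time. Of 10 endothelial genes, 3 had a promoter peak in control 1 and in control 2, and all 10 had one in BPA 1 and in BPA 2. Pecam1, Cdh5, Tie1, Erg, Emcn, Robo4 and Egfl7 had none in either control, a pattern seen at 2.51% of the 21000 coding genes. Of the other 3, Kdr ranked at 32.4% and 33.0% in the controls and at 14.6% and 11.3% in BPA. Tek had ranks of 90.3% and 39.1% against 16.6% and 11.7%. Esam overlapped between the groups, at 35.5% and 22.9% against 30.4% and 17.2%. Among the 7 adipocyte genes the order differed by gene. Adipoq ranked at 58.6% and 20.3% in the controls and at 67.2% and 51.1% in BPA, and Plin1 at 74.8% and 23.1% against 68.9% and 88.9%. These 2, Cidec, Lep and Fabp4 had their best rank in control 2. In that library the Klf15 rank is that of the weaker of 2 peaks, so it cannot be set against these ranks. Pparg, the master regulator of adipocytes, ranked at 43.2% and 33.8% against 15.8% and 7.16%, and Cebpa at 15.7% and 14.9% against 5.54% and 4.42%, both better in BPA. Macrophage genes had a promoter peak at 2, 2, 4 and 5 of 6, progenitor genes at 3, 3, 4 and 4 of 4, smooth muscle genes at 3, 2, 2 and 3 of 4, mesothelial genes at 3, 2, 2 and 1 of 4, and epithelial genes at 2, 0, 2 and 2 of 3, in control 1, control 2, BPA 1 and BPA 2. Of all coding genes 62.6%, 61.4%, 64.1% and 67.5% had one in these libraries. Klf2 and Klf4 had a promoter peak in all 4 libraries, unlike 7 of the 10 endothelial markers. Kdr, Tek and Esam had one in all 4 too, as did all 10 members and 57.9% of coding genes. In whole tissue, more nuclei of a cell type and more accessible chromatin per nucleus cannot be told apart, and the part of cell make-up in the Klf values was not tested.

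Among the genes whose groups did not overlap, the widest gap between the means was at Klf11, a TGF-beta-inducible family member that starts on chromosome 12 at 24651371, on the + strand. The promoter peak of Klf11 ranked at 10.9% and 8.50% in the controls and at 1.78% and 0.685% in BPA 1 and BPA 2, means of 9.72% ± 1.73 (SD, n = 2) and 1.24% ± 0.777 (SD, n = 2). Its pile-up was 1.29 and 1.37 times that of the median coding promoter in controls and 2.46 and 2.58 times in BPA. By fold it ranked at 38.5% and 25.0% against 13.4% and 15.1%. The summit lay 445 and 448 bp downstream of the start in the controls, and at −176 and 150 bp in BPA 1 and BPA 2.

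Klf10, also induced by TGF-beta, has start sites on chromosome 15 at 38300711 and 38299900, on the - strand. The Klf10 promoter peak ranked at 4.81% and 5.63% in the controls and at 3.17% and 2.15% in BPA, with no overlap of the groups. By fold the groups were in the opposite order, at 34.2% and 33.8% against 38.2% and 45.5%. Klf11 and Klf9 were thus the members whose BPA values were on the stronger side of both controls by q-value rank, by rank among coding promoters, by relative pile-up and by fold rank. Taken singly, these orders were seen at 40.7%, 35.6%, 34.4% and 39% of coding genes. The 4 measures draw on the same peaks, and the share of coding genes that meet all of them was not counted.

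The adipogenic activator Klf5, which works with C/EBP proteins at Pparg, starts on chromosome 14 at 99298691, on the + strand. At Klf5 the promoter peak ranked at 6.76% and 3.06% in the controls and at 10.8% and 6.16% in BPA, so the groups overlapped. Its pile-up relative to the median coding promoter was 1.35 and 1.61 times in controls and 0.842 and 0.972 times in BPA, with both BPA values below both controls. Among the best promoter peaks of coding genes it ranked at 39.8% and 20.6% in the controls and at 55.1% and 44.4% in BPA, also weaker in both. By fold rank the groups overlapped, at 18.8% and 6.94% against 9.68% and 3.62%. The local background at Klf5 was 3.54 to 5.04 times the lowest of the library in all 4 libraries.

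Klf3, a repressor of adipogenesis on chromosome 5 at 64803521, on the + strand, ranked at 13.0%, 6.18%, 7.11% and 5.47% in control 1, control 2, BPA 1 and BPA 2. Klf6, which represses the preadipocyte gene Dlk1 and starts on chromosome 13 at 5861489, on the + strand, ranked at 5.01%, 1.91%, 4.36% and 4.94% in the same order. Klf13, a regulator of the chemokine gene Ccl5 in T cells that starts on chromosome 7 at 63938915, on the - strand, ranked at 4.92%, 2.23%, 5.43% and 4.86%, again in that order. In all 3 the groups overlapped by rank. The pile-up relative to the median coding promoter was 2.11 and 2.35 times at Klf6 in controls and 2.05 and 1.94 times in BPA, lower in both. At Klf3 it was 1.29 and 1.61 times in controls and 1.75 and 1.88 times in BPA, higher in both. The summit at Klf3 lay at −534 and −536 bp from the start in the controls, outside the 500 bp, and at −427 and −161 bp in BPA.

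Of 16 other genes of the same zinc finger family, 9, 9, 9 and 11 had a promoter peak in control 1, control 2, BPA 1 and BPA 2, and 8 had one in all 4. Klf1, Klf12, Klf17, Sp6 and Sp7 had none in any library. In the 8 shared by all libraries, both BPA ranks were better at 4, Klf7, Klf16, Sp3 and Sp4, and worse at 1, Sp1. Over coding genes 57.9% had a promoter peak in every library, and of these 40.7% were better and 18.7% worse in BPA, so the counts for the family were near those of coding genes.

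Beyond the promoters, peaks of the 4 lists that overlapped by 1 bp or more were merged, which gave 133 regions in the 10 windows. Of these, 10 were the promoters of the members, 6 touched promoters of other genes and 117 were distal. The distal regions lay between genes in 85 cases, in an intron in 28 and in an exon in 4, at Klf3, Klf10, Klf13 and Klf15, each in the 3' UTR. Inside the member genes there were 22, and in 66 the nearest start site was that of the member. Their density ran from 2.62 per 100 kb around Klf5 to 15.6 per 100 kb around Klf2, against 4.82 over the genome. The genome value is over the full length of the chromosomes, whereas the windows surround genes with promoter peaks. No value for windows around other genes is given here.

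A peak was present in all 4 libraries in 48 of the 117 regions (41.0%), against 20% of 131478 distal regions. It was present in 1 library only in 36 (30.8%), against 43.4%, of which the controls held 10 and 11, BPA 1 held 2 and BPA 2 held 13. In both BPA libraries and neither control there were 13 (11.1%), against 10%. In both controls and neither BPA library there were 3 (2.56%), against 5.86%. Without BPA 1 the count of regions found only in BPA rose to 26, and without BPA 2 to 20. The count found only in controls was 16 without control 1, 13 without control 2 and 6 without BPA 1 or without BPA 2. With 1 library left out, 1 library stands for its group.

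**Figure D2:**
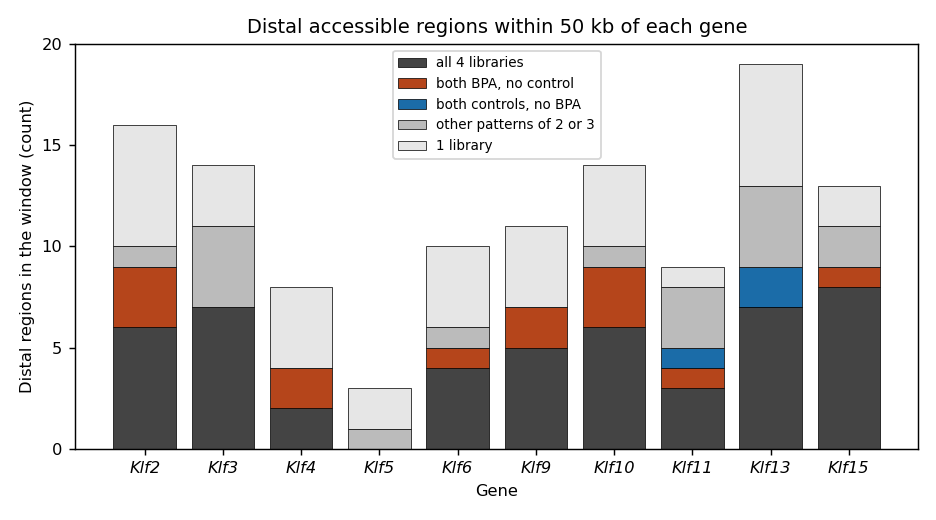
Number of distal regions in the window of each gene, stacked by the libraries that held a peak. Klf13 had the most distal regions with 19 and Klf5 the fewest with 3, and only Klf11 and Klf13 had regions found in both controls alone.

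Around Klf2 there were 16 distal regions, 6 in all 4 libraries and 3 only in BPA. The best-ranked shared one, at chr8:72295136-72296398, ranked at 8.33% and 5.61% in the controls and at 3.83% and 5.43% in BPA 1 and BPA 2, so that both BPA ranks were better. A wider region 15255 bp upstream, at chr8:72302756-72305742, had the opposite order, at 2.17% and 5.79% against 11.5% and 8.51%. These 2 upstream sites of Klf2 stood in opposite order between the groups, and the second was named after its values were seen. Of shared distal regions over the genome, 21.6% were better in BPA and 31.7% worse, so both orders are common. The best-ranked region found only in BPA, at chr8:72281432-72281960, ranked at 43.4% and 33.2%. Downstream, 3 shared regions and 1 found only in BPA lay in intron 21 of the neighbouring gene Eps15l1, with their nearest start site at Klf2.

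Klf4 had 8 distal regions, 2 in all 4 libraries and 2 only in BPA. The shared region at chr4:55514545-55515406 ranked at 17.2% and 9.65% in the controls and at 4.31% and 5.80% in BPA. Its fold over local background was 6.64, 8.96, 17.97 and 17.2 in control 1, control 2, BPA 1 and BPA 2, with pile-ups of 32, 46, 91 and 202 reads. Both BPA ranks by q-value were better there than both control ranks, as at the Klf4 promoter. The raw fold at that promoter was 4.58 and 5.04 against 6.38 and 6.003. Raw folds were also higher in BPA at the median coding promoter, and by fold rank the Klf4 promoter was weaker in BPA. The best-ranked region found only in BPA, at chr4:55508729-55509183, was weak, at 53.2% and 80.5%.

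Klf9 had 11 distal regions, 5 in all 4 libraries and 2 only in BPA. The shared region at chr19:23133898-23136687 ranked at 15.3% in each control and at 7.06% and 6.93% in BPA. The region found only in BPA at chr19:23125248-23126333 ranked at 33.9% and 21.1%. In the other direction, a shared region 48703 bp downstream of the start, at chr19:23189181-23190225, ranked at 20.5% and 8.66% in the controls and at 39.9% and 73.2% in BPA. These sites of Klf9, on opposite flanks, stood in opposite order, and the downstream one was named after its values were seen. Both orders are common, at 21.6% (better in BPA) and 31.7% (worse) of shared distal regions over the genome.

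Klf15 had 13 distal regions, of which 8 were in all 4 libraries and 1 only in BPA. Its best-ranked shared region, at chr6:90470740-90471924 in intron 2, ranked at 28.6%, 16.3%, 12.5% and 19.3%, and the groups overlapped. One of the 8 was worse in BPA, at chr6:90422479-90423244 in intron 2 of the neighbouring gene Cfap100, with 17.4% and 15.1% against 27.5% and 32.3%. The region found only in BPA, at chr6:90495265-90496491, ranked at 77.3% and 80.2%. Control 2, in which the Klf15 promoter site was split in 2 peaks, had the second strongest rank of the 4 libraries at the intron 2 site.

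**Figure D3:**
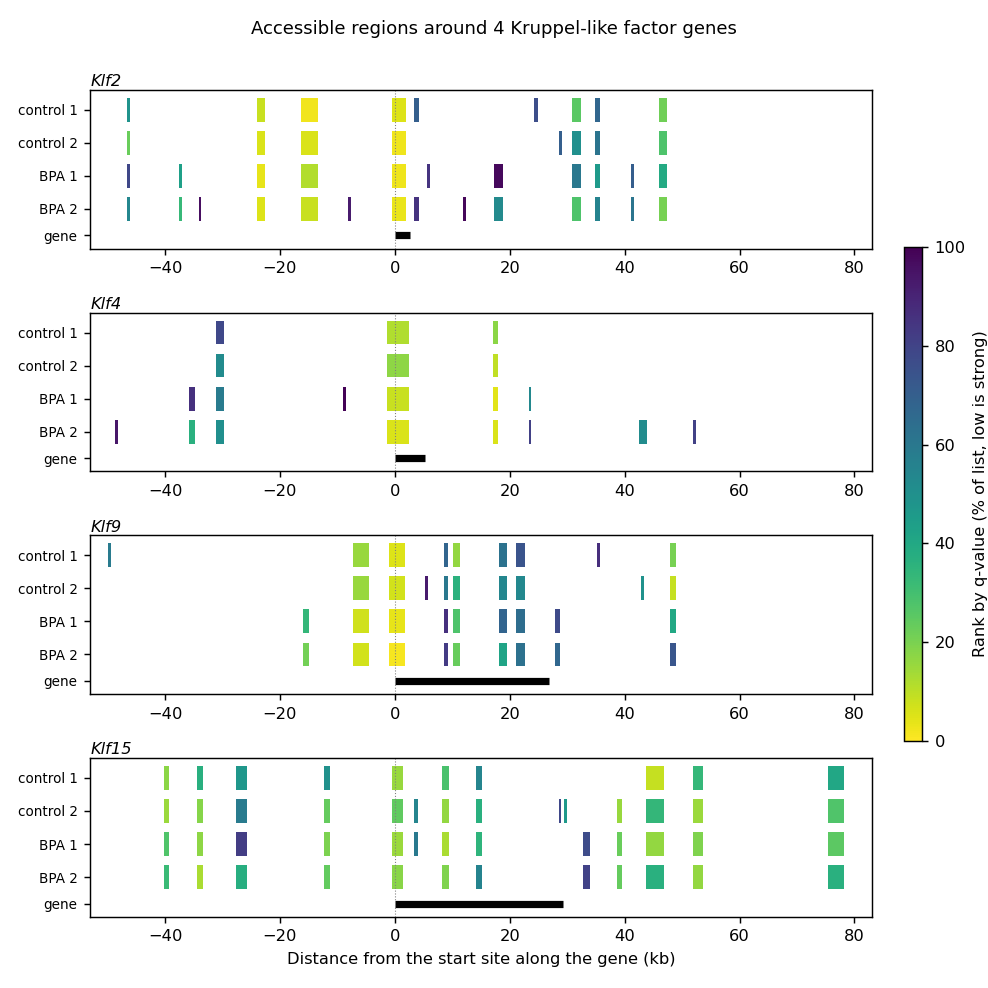
Merged regions in the windows of Klf2, Klf4, Klf9 and Klf15 by distance from the start site in kb along the direction of the gene, with 1 row per library. A bar marks a region with a peak in that library, drawn over the whole merged region, and its colour gives the rank by q-value in percent of the list. Of 24 distal regions each, Klf2 and Klf4 show 5 found only in BPA and Klf9 and Klf15 show 3, against 10% of all distal regions.

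By pair, Klf2 and Klf4 together had 24 distal regions and so did Klf9 and Klf15. In all 4 libraries there were 8 in the endothelial pair and 13 in the adipocyte pair, only in BPA 5 and 3, only in controls 0 and 0, and in 1 library 10 and 6. Over all distal regions of the genome these shares were 20%, 10%, 5.86% and 43.4%. Among the shared ones, both BPA ranks were better at 3 and worse at 2 in the endothelial pair, and better at 1 and worse at 2 in the adipocyte pair. Of all shared distal regions 21.6% were better and 31.7% worse. The counts of the pairs are small and their differences were not tested.

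In the other 6 windows, Klf10 held the shared site with the best rank, taken as the worst over the 4 libraries, at chr15:38244662-38245724 between genes and nearest to the start of Odf1, with ranks of 5.85% and 3.06% in the controls and 8.99% and 11.0% in BPA. Its best-ranked region found only in BPA, at chr15:38259391-38260351, ranked at 54.9% and 35.6%. For Klf6 the strongest shared site, at chr13:5844357-5846122 and −16051 bp from the start, was level over the libraries at 12.1%, 9.20%, 12.4% and 8.82%. Its only region found in both BPA libraries alone, at chr13:5817535-5819562, ranked at 72.2% and 46.6%.

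For Klf13 the strongest shared site lay in intron 1, at chr7:63924478-63926299, with ranks of 9.44%, 14.8%, 14.8% and 11.5%. Klf13 also had 2 of the 3 regions found only in controls, and the better-ranked, at chr7:63855284-63855652, stood at 60.8% and 72.4%. For Klf3 the strongest shared site, at chr5:64877248-64878721, lay 74714 bp downstream of the start, with ranks of 8.72%, 4.20%, 10.6% and 17.5%. Klf3 had no region of either group alone.

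For Klf11 the strongest shared site, at chr12:24600413-24601386 in intron 8 of Grhl1, was worse in BPA, at 15.2% and 10.1% against 19.99% and 21.5%, the opposite of its promoter. The Klf11 region found only in BPA, at chr12:24633763-24634658, was the best-ranked of its kind in the 10 windows, at 26.5% and 16.3%, with a pile-up of 31 and 88 reads. The best-ranked region found only in controls was also near Klf11, at chr12:24675320-24675722 in intron 1 of Cys1, with ranks of 55.5% and 55.3%. Klf5 had 3 distal regions, none of them in more than 2 libraries.

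Over the 48 shared regions, both BPA ranks were better than both control ranks at 6 (12.5%), against 21.6% of 26280 shared distal regions of the genome, and worse at 12 (25.0%), against 31.7%. In 30 the groups overlapped. The worst rank of a region over its libraries had a median of 39.8% in the shared regions, 77.5% in the 13 found only in BPA and 72.4% in the 3 found only in controls. Over all distal regions of the genome these medians were 59.6%, 69.4% and 69.3%. Within the best 25% of every list that held them were 13 of the 48 shared regions, 0 of the 13 and 0 of the 3. Over the genome 2672 of 26280 shared regions, 528 of 13151 found only in BPA and 145 of 7710 found only in controls were that strong.

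**Figure D4:**
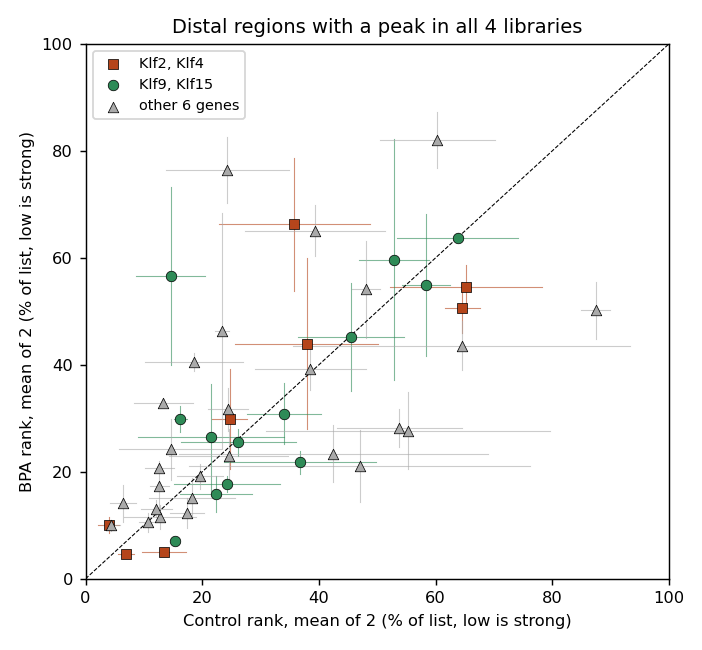
Ranks of the 48 distal regions with a peak in all 4 libraries, as the mean of the 2 control libraries on the horizontal axis and of the 2 BPA libraries on the vertical axis, in percent of the list. Thin lines join the values of the 2 libraries of a group, the dashed line marks equal ranks, and points below it were stronger in BPA. In 30 of the 48 regions the ranks of the groups overlapped.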

How the data were processed

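The authors trimmed reads with Trim Galore, mapped them to mm10 with Bowtie2 2.3.5.1, kept unique, non-duplicate reads and ran MACS2 2.2.7.1 per library without pooling. Of the narrowPeak columns, the deposited score is 10 times the −log10 q-value without its decimals, and the deposited fold is the ratio of pile-up to local background. The significance columns, also deposited by the authors, hold the −log10 p-value and the −log10 q-value of MACS2. Its other options were not given in the sources used here.

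Promoters were 500 bp either side of curated RefSeq start sites, and an overlap of 1 bp counted. From the fold and p-value of each peak its pile-up and background were worked back, and the p-value was met to a relative error of 1e-04 for 100% of peaks. The solving and the counting of regions were tested on simulated data. Depth was judged from the lowest background, since the lists hold no read totals. Ranks are by q-value, as a share of the list. The rank of a region is the worst over its libraries. Named were all 10 members and, for each, the best-ranked distal region found in all libraries, in BPA only and in controls only. The Klf2, Klf9 and Klf15 sites that were worse in BPA, and the marker and family genes named one by one, were named after their values were seen. Members and gene lists were chosen with earlier results of these data known.

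Motifs searched on both strands were the MEF2 core (CTA and TAG 4 bases apart), AP-1 (TGACTCA), a CEBP palindrome (TTGCGCAA), ETS (CCGGAAGT), the E-box (CACGTG), the CACCC box (CCACACCC), the GC box (GGGGCGGGG) and paired glucocorticoid sites (AGAACA and TGTTCT 3 bases apart). No motif contains another. Python 3.11.15, numpy 2.4.6, pandas 2.3.3, scipy 1.17.1 and pysam 0.24.0 were used. As alternatives, peaks were limited to a −log10 q-value of 5 or more, to equal lists of 72375 and to the best 20000, and the other settings were promoters of 1000 bp either side, the summit, windows of 20 and 100 kb, 50% reciprocal overlap, rank by fold and leaving out each library.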

Additional observations from a re-analysis of the deposited data

How the results depend on the processing

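The alternatives gave 78 values, and 53 of them stayed near the reported value, 22 moved and 3 took the other sign. Near meant within 1.5 times for counts, and for the pair difference within its pooled SD of 11.8 percentage points. That SD is larger than the pair difference itself. With 2 libraries per group, leaving 1 out cannot move the pair difference by more than this SD. For the pair difference, near therefore says little about stability. No paired analysis was possible because the counts and ranks come from no test, which leaves no fit to add a replicate block to. Promoter peaks were present in all libraries at 8 to 10 members, the lowest by summit, where Klf3 and Klf15 were lost. Shared distal regions fell from 48 to 11 with the best 20000 peaks and to 24 with windows of 20 kb. Those found only in BPA changed from 13 to 1, 8 with windows of 20 kb and 22 with windows of 100 kb, and to 16 to 26 with 1 library left out. Those found only in controls changed from 3 to 1 with 50% reciprocal overlap and to 6 to 16 with 1 library left out. The pair difference of −9.11 changed sign to 0.655 with promoters of 1000 bp and to 0.793 with Klf9 alone, and ran from −20.9 to 2.70 with 1 library left out. It was −1.49 among coding promoters, −17.1 by fold, −15.7 at a −log10 q-value of 5 or more and −11.2 with equal lists. Ranks by fold and among coding promoters are on other scales than the SD that called these values near. The pair difference could not be computed for the best 20000 peaks or by summit, where Klf15 lacked a value. Members better in BPA numbered 7 among peaks whose −log10 q-value was 5 or more, 2 by fold and 5 to 7 with 1 library left out. Members worse in BPA numbered 1 with equal list sizes, 1 with the best 20000 peaks, 1 among coding promoters, 2 by relative pile-up, 4 by fold and 0 to 4 with 1 library left out. Alternatives to these last 2 counts, Klf9 alone and the rank among coding promoters were chosen after seeing the data. Shares over coding genes are given above for fold, coding promoters and relative pile-up, and are not given for the other alternatives to these counts. Peaks near the threshold depend on depth, which was lowest in BPA 1.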
